A study of Mus musculus with 2 samples.

Results

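The Col2a1-positive cells described here were 379 of the 2364 cells in the control library of mouse limb tendon at P7, which was 16% of that library (exact binomial 95% interval 14.6 to 17.6%), in a series of 4956 cells. They were chosen by their own readout. A cell was taken when it held at least 5 Col2a1 unique molecular identifiers (UMIs, each standing for 1 captured mRNA molecule) and when the haemoglobin genes Hba-a1, Hba-a2, Hbb-bs and Hbb-bt together made up under 10% of its UMIs. The haemoglobin limit left out 0 cells that had enough Col2a1. They were described against 806 cells of the same library that held at least 30 Scx UMIs per 10000 and fewer than 5 Col2a1 UMIs, called the comparator cells. Because Col2a1 chose both groups, its own difference between them is a description only.

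The study sequenced enzymatically released tendon cells in 2 libraries with 10x Genomics 3′ chemistry, each from fore- and hindlimb tendons pooled from 2 pups at an age of 7 days, and the step that scrapes off the outer tendon sheath was left out. The control library is labelled wild type in its title and genotype and Het in its description. The other library is labelled mutant and CKO, and its genotype in the study was Tgfbr2 f/-;ScxCre, in which a Cre driven by the Scx gene's regulatory region deletes the type II receptor for TGF-beta in tendon cells. All mice of the study also carried the ScxGFP tendon reporter and the Ai14 Rosa26-tdTomato Cre reporter, and the Scx counts include ScxGFP transcripts. With 1 library per condition, and cells that are not replicates, no test was made, and every 95% interval below covers counting error only. The control library held 9451606 UMIs with a median of 3866.5 per cell, and the mutant library held 8250248 UMIs with a median of 2828. The libraries shared 2 cell barcodes, of which 0 belonged to a Col2a1-positive cell.

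Type II collagen, made from Col2a1, is the main fibrillar collagen of cartilage, where it forms mixed fibrils with type XI and type IX collagen and is laid down together with the large proteoglycan aggrecan. Tendons are built mostly of type I collagen, but where they wrap around bone or attach to it, they form fibrocartilage, whose cells make both collagen types. Scleraxis, the product of Scx, is a transcription factor of tendon cells, and tenomodulin, the product of Tnmd, is a membrane protein of differentiated tenocytes.

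Nearly all Col2a1-positive cells were tendon cells by these markers. Of the 379 cells, 371 (97.9%) also met the Scx minimum of the comparator, and 8 did not. Their Scx level ran from 9.28 to 774 UMIs per 10000 with a median of 237, against a median of 214 in the comparator cells. Tnmd had a UMI in 100% of them, and its summed level was 7169 counts per 1000000 UMIs (CPM, 95% interval 7049 to 7291), against 7570 (7473 to 7669) in the comparator. The tenocyte markers Scx, Tnmd, Fmod, Mkx, Thbs4, Kera and Col1a1 all had UMIs and summed to 119381 CPM, against 110262. Col1a1, the main type I collagen chain, was the most abundant gene and took 7.78% of the UMIs of the Col2a1-positive cells.

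No gap separated the Col2a1-positive cells from other tendon cells. The control library held 1177 Scx-high cells, of which 1044 (88.7%) had at least 1 Col2a1 UMI and 31.5% (28.9 to 34.3%) were Col2a1-positive. The number of Scx-high cells with 0, 1, 2, 3, 4 and 5 Col2a1 UMIs was 133, 155, 178, 192, 148 and 113, and 2 cells had the highest value of 15. Among the Col2a1-positive cells, 333 had 5 to 9 Col2a1 UMIs and 46 had 10 or more, with a median of 6. The minimum thus cut through the upper slope of a single broad distribution.

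**Figure D1:**
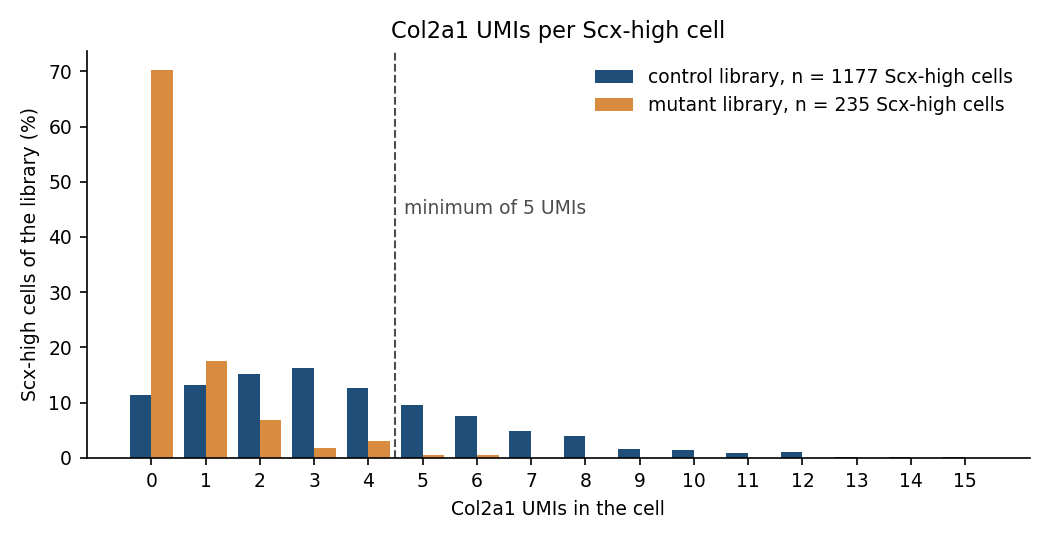
Col2a1 UMIs per cell (x axis) against the percent of Scx-high cells of each library (y axis), with the minimum of 5 UMIs as a dashed line. The 1177 control cells form 1 hump with its highest bar at 3 UMIs, while most of the 235 mutant cells sit at 0.

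A minimum in UMIs also favours cells with more RNA captured. Col2a1-positive cells had a median of 5064 UMIs (951 to 12111) and 1604 genes, against 3732 UMIs (953 to 14358) and 1376.5 genes in the comparator. Levels are therefore given as CPM of summed UMIs, and shares of cells with a UMI are also given at an equal depth of 1709 UMIs, drawn at random from each cell, for which 11 Col2a1-positive and 108 comparator cells were too shallow. Just inside the minimum, the 113 Scx-high cells with 5 Col2a1 UMIs had a median of 4648 UMIs and levels of 1995 CPM for Col11a2, 98.8 for Ucma, 170 for Chad, 308 for Acan and 41.5 for Matn3 (21 UMIs). Just outside it, the 148 cells with 4 Col2a1 UMIs had a median of 4766 UMIs and 1926 CPM for Col11a2, 159 for Ucma, 118 for Chad, 220 for Acan and 18 for Matn3 (12 UMIs).

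The 5 genes put forward as markers of these cells were Col2a1 (ENSMUSG00000022483; GRCm38 chr15:97975602-98004695), Col11a2 (chr17:34039437-34066685), Ucma (chr2:4976122-4985748), Chad (chr11:94565047-94569127) and Matn3 (chr12:8947929-8972028). Col2a1 was at 1369 CPM (1317 to 1422) in the Col2a1-positive cells and at 552 CPM (526 to 579) in the comparator, a ratio of 2.48 that the selection fixes. Col11a2, which codes for a chain of type XI collagen, had 3991 UMIs and 2097 CPM in the Col2a1-positive cells against 5224 UMIs and 1718 CPM, a ratio of 1.22 (1.17 to 1.27). It had a UMI in 98.9% of Col2a1-positive and 88.5% of comparator cells, and in 91.8% and 83.0% at equal depth. Both groups were thus rich in Col11a2, and the Col2a1-positive cells were modestly higher.

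Ucma, which codes for a small secreted protein of cartilage, was at 140 CPM (267 UMIs) against 130 CPM (396 UMIs), a ratio of 1.08 (0.92 to 1.26). Chad, coding for the cartilage matrix protein chondroadherin, was at 137 CPM against 126 CPM, a ratio of 1.09 (0.93 to 1.28). Matn3, coding for matrilin-3 of the cartilage matrix, was scarce, with 57 UMIs against 60, or 29.9 CPM against 19.7 CPM and a ratio of 1.52 (1.04 to 2.22), and it reached the minimum of 0.1 UMI per cell used below only through the Col2a1-positive cells. The intervals of the Ucma and Chad ratios span 1, so neither was detectably higher in the Col2a1-positive cells at this depth. At equal depth, Ucma had a UMI in 16.3% of Col2a1-positive and 16% of comparator cells, and Chad in 12.8% and 12.0%.

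Among the genes of the cartilage lists, several that define cartilage cells were at or near 0 and others were detected. Matn1, Clec3a, Susd5 and Snorc (listed as 3110079O15Rik), all cartilage genes, and Col10a1, the collagen of hypertrophic chondrocytes, had 0 UMIs in all 379 Col2a1-positive cells, which allows up to 3 UMIs as a one-sided limit, or 1.58 CPM. Col9a1 had 1 UMI and Col9a3 had 3, while the third type IX chain, Col9a2, had 39 (20.5 CPM against 16.4, ratio 1.25, 0.80 to 1.93). Sox9, the main transcription factor of chondrocytes, had 25 UMIs, or 13.1 CPM, against 12.2 CPM in the comparator. Scarce genes lay on both sides, with 18 UMIs against 11 for the link protein Hapln3 (ratio 2.61, 1.17 to 6.13), 21 against 15 for Lect1, coding for chondromodulin (2.24, 1.1 to 4.66), and 17 against 76 for the proteoglycan gene Prelp (0.36, 0.20 to 0.61). These 3 genes averaged under 0.1 UMI per cell in both groups and were named after their values were seen. Of the 12 chondrocyte markers, 10 had a UMI in each group, with Acan the most abundant, and they summed to 538 CPM against 443. The markers were thus mixed. Among genes that reached 0.1 UMI per cell in both groups, Col11a2, Col11a1, Acan, Matn4 and Cilp2 had intervals above 1, while Prg4, Mgp, Ptx4 and Cilp had intervals below 1, and those of Ucma and Chad spanned it. Matn3, Hapln3, Lect1 and Epyc, which did not reach it in both, had intervals above 1 and Prelp one below, while Matn1, Snorc, Col9a1 and Col9a3 were absent or nearly so. No gap in Col2a1 set the cells apart, and they are called by the gene that chose them and given no cell type name.

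The free RNA level of Col2a1 was read from other cells of the library. Immune cells (at least 10 UMIs of immune markers, outside the Col2a1-positive and comparator groups, 175 cells) had 3 Col2a1 UMIs, or 6.46 CPM. Another 2 Col2a1-positive and 11 comparator cells held as many immune UMIs and were not counted among them. Red blood cells (over 50% haemoglobin UMIs, 88 cells) had 2 Col2a1 UMIs, or 4.09 CPM. Neither type is known to make type II collagen, so these values are taken as the level of free RNA. The other cells of the control library, 914 cells low in Scx, had Col2a1 at 34.2 CPM (28.4 to 40.9). At equal depth, a Col2a1 UMI was found in 92.1% of Col2a1-positive cells, 62.5% of comparator cells, 5.78% of Scx-low cells, 2.36% of immune cells and 1.35% of red blood cells. The value of the Col2a1-positive cells is fixed by the rule, while the comparator cells, with fewer than 5 UMIs each, also held Col2a1 far above the free RNA level. Col11a2 had the same order, at 43.8 CPM in Scx-low, 19.4 in immune and 14.3 in red blood cells, and Ucma was at 1.13, 4.30 and 0 CPM there, the last 2 from 2 and 0 UMIs.

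**Figure D2:**
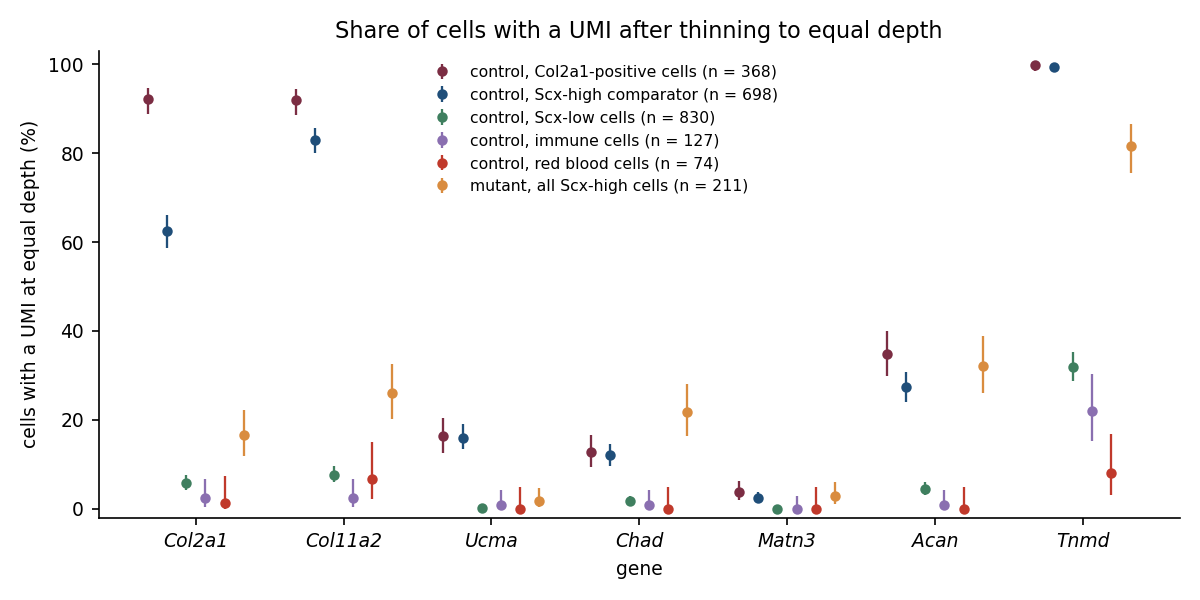
Percent of cells with at least 1 UMI of each gene after thinning every cell to 1709 UMIs (y axis) in 5 groups of control cells and in the mutant Scx-high cells, with exact binomial 95% intervals. Col2a1-positive and comparator cells lie close together for Ucma, Chad and Matn3, and both lie far above the other control cells for Col11a2.

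Across all genes, the Col2a1-positive and comparator cells were very alike, and 83.5% of the comparator cells also held a Col2a1 UMI. Of 4446 genes that averaged 0.1 UMI per cell or more in either group, 3 were at least 2-fold higher in the Col2a1-positive cells (0.0675%) and 24 at least 2-fold lower (0.54%). Of the 24 lower genes, 16 reached 0.1 UMI only in the comparator cells, and 715 of the 4446 did so only in the deeper Col2a1-positive cells and 55 only in the comparator cells. The median log2 ratio of all genes was -0.04. Besides Col2a1, the higher genes were Tenm4, coding for a teneurin membrane protein, and Tmem52, coding for a membrane protein of little known function. Tenm4 had 52 UMIs in 43 of the 379 cells against 30 UMIs in 28 of 806, or 27.3 CPM against 9.86 CPM, a ratio of 2.77 (1.73 to 4.5). Tmem52 had 40 UMIs against 30, a ratio of 2.13 (1.29 to 3.54), of which 6 UMIs were in 1 cell, and the ratio was 1.94 without the highest cell of each group. Both genes passed the minimum of 0.1 UMI only through the Col2a1-positive cells, and they rest on few molecules, which were found in 11.3% of the Col2a1-positive cells for Tenm4 and in 6.6% for Tmem52.

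Better measured genes, averaging 0.5 UMI per cell or more, had ratios of at most 1.44 apart from Col2a1. Of the 20 highest, 10 (Clu, Uqcrb, Scd2, Grhpr, Ifi30, Cdc42ep5, Sdc3, Poc1a, Cck and Apod) reached 0.5 UMI only in the Col2a1-positive cells, and their ratios are descriptions of genes taken as extremes. Clu, coding for the secreted chaperone clusterin, was at 174 CPM against 120 (ratio 1.44, 1.24 to 1.68). Next came Uqcrb, a subunit of the respiratory chain (1.38), Scd2, a fatty acid desaturase (1.34), Cuedc1 (1.29) and Mmp23, a membrane metalloproteinase (1.28, 1.16 to 1.41). Acan, coding for aggrecan, was at 283 CPM against 224 (1.26, 1.13 to 1.42), and it had a UMI in 67.0% against 46.9% of cells, or 34.8% against 27.4% at equal depth. Angptl7, a secreted factor, had a ratio of 1.27 that was 1.21 without its highest cells, of which 1 held 45 UMIs, and its log2 ratio turned to -0.28 with a minimum of 10 Col2a1 UMIs. The remaining genes of the 20 highest were Grhpr, Ifi30, Cdc42ep5, Sdc3, Poc1a, Wfdc1, Tmem238, Cck, Apod, Gstm5, Col11a2 and Hcfc1r1, with ratios from 1.28 down to 1.21. Besides Col2a1, Col11a2 and Acan were the genes of the cartilage lists among these 20.

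Scarcer genes reached larger ratios. After Tenm4 and Tmem52, the highest among genes with a mean of 0.1 to 0.5 UMI were Ide (insulin-degrading enzyme), Siah2 (a ubiquitin ligase), Sec24b (a coat protein of vesicles leaving the endoplasmic reticulum), Dab2ip, Pacs2, Gm29157, Tet3 and Ppme1, at ratios from 1.84 down to 1.72. Each had from 38 to 62 UMIs in the Col2a1-positive cells. These 10 genes were taken as extremes and passed the minimum of 0.1 UMI only through the Col2a1-positive cells, so their ratios are descriptions. Dab2ip and Tet3 each had a cell with 7 UMIs.

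On the lower side, the lowest of the genes averaging 0.5 UMI or more was Anxa1, coding for the phospholipid-binding protein annexin A1, at 82.0 CPM against 164 (ratio 0.50, 0.42 to 0.60). Aqp1, a water channel, followed at 84.6 CPM against 164 (0.52), then Tspo, a mitochondrial membrane protein (0.55), and Col3a1, coding for type III collagen, at 385 CPM against 668 (0.58, 0.53 to 0.63). Ifitm3 (0.63), S100a4, Ptn, Cyb5r3, Tagln2, Postn, Tspan6, Fcgrt and Csrp1 were also among the 15 lowest, the last at 0.71. Anxa1, Aqp1, Tspo, Cyb5r3 and Tspan6 reached 0.5 UMI only in the comparator cells. A UMI of Anxa1 was found in 27.2% of Col2a1-positive and 28.2% of comparator cells, and one of Col3a1 in 59.1% and 58.1%, although the Col2a1-positive cells were deeper.

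Part of the UMIs of contractile genes sat in single comparator cells. Acta2, coding for smooth muscle actin, was at 252 CPM against 432 (0.58), and Myl9 at 119 CPM against 197 (0.61). Acta2 had a UMI in 55.1% of the deeper Col2a1-positive cells and in 41.6% of comparator cells, and Myl9 in 37.7% and 32.5%. Without the highest cell of each group, their ratios were 0.64 and 0.73, and without the cells rich in immune, pericyte or smooth muscle markers described below, the log2 ratio of Acta2 turned to 0.20. Acta2 is the most abundant of these smooth muscle markers, so cells were left out partly by their own Acta2 UMIs. The latter value is therefore a description only. Tagln had 34 UMIs against 395 (0.14), of which 139 were in 1 comparator cell, and Actg2 12 against 88. The mast cell protease genes Cma1, Tpsb2 and Tpsab1 had 2, 1 and 0 UMIs against 231, 157 and 91, and 1 cell held 223, 154 and 86 of them. Lgals7 had 2 UMIs against 98, with 36 in 1 cell. The other genes at least 2-fold lower were Lum, Hspa14, Sparcl1, Sod3, Pf4, Cd34, Prph, Mgst3, Lgmn, Cd109, Ebf1, Col18a1, Chodl, Ifi27l2a, Mt1, Ecm1, Cilp and Itih5, whose 2 lowest ratios were 0.23 for Itih5 and 0.30 for Cilp. Of these, Cd34 and Lum are fibroblast genes and Pf4 and Lgmn are strong in macrophages, while the others were not assigned to a cell type. The comparator UMIs of Lgmn lay in 55 cells and those of Pf4 in 38. Cd34, Lum and Lgmn are also among the genes that the paper reports as upregulated in mutant tendon cells.

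Markers of immune, pericyte, fibroblast and endothelial cells were lower in the Col2a1-positive cells as whole lists. The 10 immune markers summed to 97.2 CPM against 176, with Lyz2 the most abundant (47 against 109 UMIs) and Ptprc at 0 in the Col2a1-positive cells, of which 1 held 92 of the 185 immune UMIs. The 7 pericyte or smooth muscle markers summed to 289 CPM against 596, led by Acta2, and the 9 fibroblast or peritenon markers to 343 against 477, led by Clec3b. The 7 endothelial markers summed to 5.25 CPM against 22.0, with Kdr and Emcn at 0 in the Col2a1-positive cells and 39 of the 67 comparator UMIs in 1 cell. The red blood cell, skeletal muscle and osteoblast lists were not lower. The 5 red blood cell markers summed to 319 CPM against 287, the 7 skeletal muscle markers to 10.5 against 7.89 (20 and 24 UMIs) and the 7 osteoblast markers to 2.63 against 1.64 (5 UMIs each, with Bglap, Bglap2, Sp7 and Ibsp at 0 in both). The 6 Schwann cell markers had 7 UMIs against 18. Without the 6 Col2a1-positive and 23 comparator cells that held at least 10 UMIs of immune or of pericyte or smooth muscle markers, 18 of 4350 genes were at least 2-fold lower and the same 3 at least 2-fold higher. These cells were left out as a setting chosen after seeing the data, and their part in each lower gene was not tested.

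Genes of the cartilage lists were described by class. The list was chosen with earlier results of these data known, so its counts are no independent support. Of 33 genes in 3 lists besides Col2a1 (collagens, proteoglycans and link proteins, and matrix and secreted proteins), 17 had enough UMIs to be compared, 0 were at least 2-fold higher and 1 was at least 2-fold lower. The median log2 ratio of these 17 was 0.12, beside -0.04 for all genes. At equal depth, where 13 of them could be compared, the median was -0.05 for both the cartilage genes and all genes. Of the 17, Col9a2, Hapln1 and Matn3 reached 0.1 UMI per cell only in the Col2a1-positive cells, so these figures describe the compared genes and not the lists as a whole. All 3 compared cartilage collagens had a ratio above 1, beside 41.6% of all genes. Col11a1 was at 998 CPM against 891 (1.12, 1.06 to 1.19) and Col11a2 was higher as given above, while the interval of Col9a2 spanned 1.

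Among the proteoglycans, biglycan (Bgn) was at 2249 CPM against 2258, a ratio of 1.0 (0.96 to 1.03), and Prg4, coding for the lubricant lubricin, at 116 against 159 (0.72, 0.62 to 0.85). Versican (Vcan) had a ratio of 1.22 (0.94 to 1.58), and the link protein Hapln1 one of 0.81 (0.53 to 1.21). In the third class, Matn4 (matrilin-4) was at 334 CPM against 290 (1.15, 1.04 to 1.28), Cilp2 at 691 against 633 (1.09, 1.02 to 1.17) and Comp, a bridging protein between collagen fibrils, at 573 against 581 (0.99). Mgp, an inhibitor of calcification, was at 446 CPM against 600 (0.74, 0.68 to 0.81), Ptx4 had a ratio of 0.68 and Cilp, a cartilage intermediate layer protein, one of 0.30 (0.21 to 0.42). Cilp and Cilp2 thus lay on opposite sides of 1. Epyc, coding for epiphycan, fell short of the mean of 0.1 UMI and had 35 UMIs in 10 Col2a1-positive cells against 23 in 6 comparator cells, 17 of them in 1 cell.

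**Figure D3:**
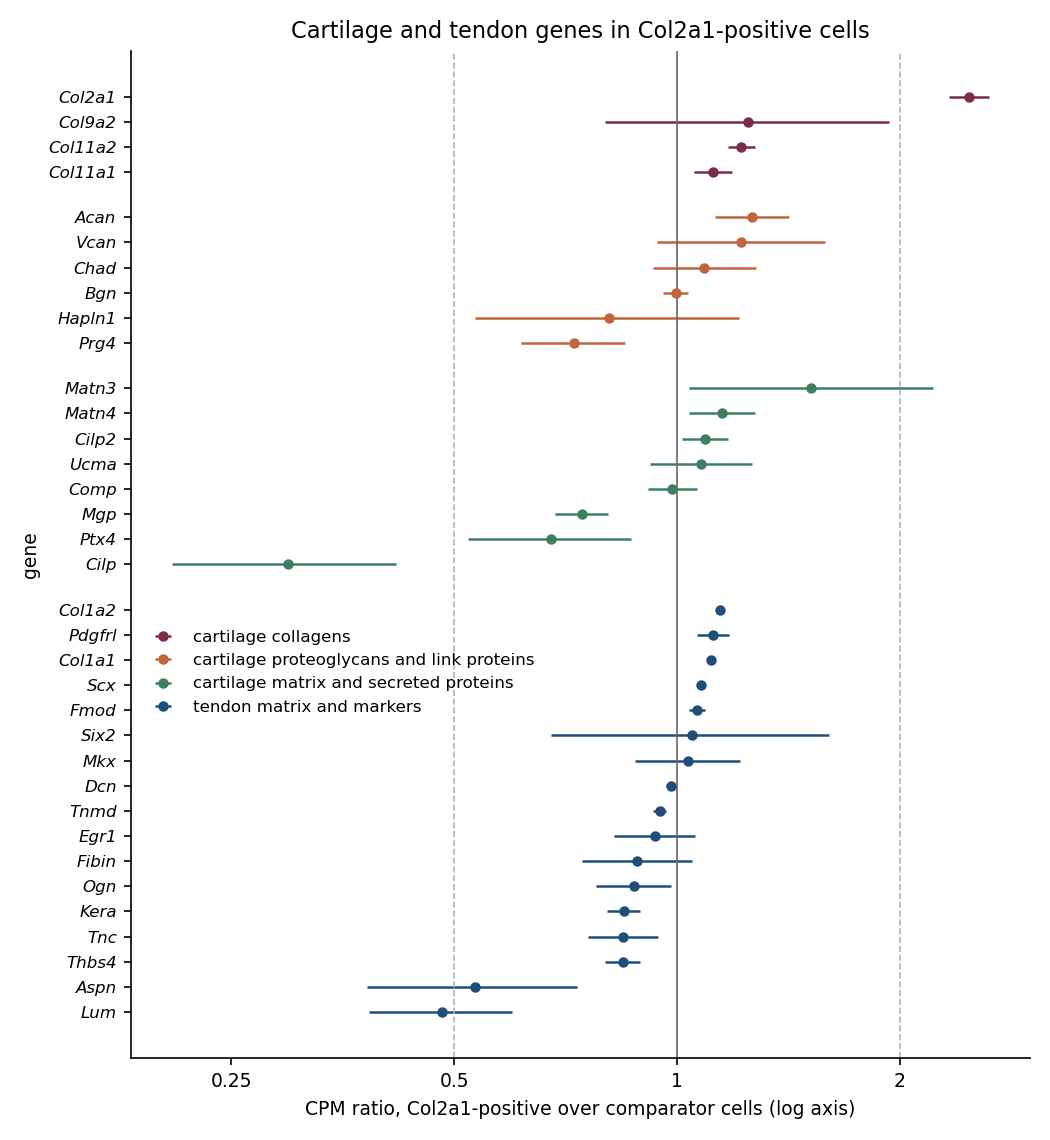
Ratio of CPM in the 379 Col2a1-positive cells over the 806 comparator cells on a log axis, with exact conditional 95% intervals, for the compared genes of the cartilage lists and of the tendon list. Col2a1 is past 2 by selection, Cilp and Lum are under 0.5, and the other genes lie between the dashed 2-fold lines.

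Tendon genes differed little. Of 17 compared genes of the tendon list, the median log2 ratio was -0.08, 0 were past 2-fold upwards and 1, Lum, was past it downwards. Type I collagen was a little higher, with Col1a1 at 77841 CPM against 70152 (1.11, 1.1 to 1.12) and Col1a2 at 50120 against 43881 (1.14, 1.13 to 1.15). Fmod, coding for the collagen-binding fibromodulin, had a ratio of 1.06 (1.04 to 1.09), and the transcription factor Mkx one of 1.03 (0.88 to 1.22). The other small leucine-rich proteoglycans of the tendon list had ratios of 0.98 for Dcn, 0.87 for Ogn, 0.85 for Kera, 0.53 for Aspn and 0.48 for Lum (108 against 359 UMIs). The glycoproteins Thbs4 (0.84, 0.80 to 0.89) and Tnc (0.85, 0.76 to 0.94) were lower as well.

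Among genes that process collagen, 24 were compared, 19 had a ratio above 1, beside 41.6% of all genes, the median log2 ratio was 0.10 and 0 were past 2-fold in either direction. The highest was Lox, coding for the enzyme that cross-links collagen, at 475 CPM against 397 (1.2, 1.1 to 1.31), and Loxl2 was at 447 against 399 (1.12, 1.03 to 1.22). Of the secretory pathway and ER stress genes, 13 of 18 lay below 1, beside 58.4% of all genes, with a median log2 ratio of -0.10. Hspa5, the main chaperone of the endoplasmic reticulum, was at 252 CPM against 323 (0.78, 0.70 to 0.87).

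Signalling lists held few differences. In the TGF-beta and BMP list, 20 genes were compared, 0 were past 2-fold and the median log2 ratio was -0.08. Tgfbr2, the gene deleted in the mutant, had 53 UMIs against 101, a ratio of 0.84 (0.59 to 1.18). Id1, Id2 and Id3, targets of BMP signalling, were at 0.81, 0.81 and 0.77 (0.69 to 0.85 for Id3), and Tgfb1 had a ratio of 0.67 (0.44 to 0.98) on 38 UMIs against 91. In the hedgehog and enthesis list, whose pathway marks fibrocartilage at tendon insertions, Gli1 had 0 UMIs against 3, Ptch1 7 against 7, Gdf5 4 against 9, Gli2 13 against 14 and Gli3 31 against 26 (ratio 1.91, 1.09 to 3.34). Its 5 compared genes had a median log2 ratio of -0.04, with the lowest Gas1, a hedgehog co-receptor, at 382 CPM against 510 (0.75, 0.68 to 0.82). Chondrogenic transcription factors (4 compared, median log2 ratio -0.14), glycosaminoglycan synthesis (9, 0.02), hypoxia and glycolysis (10, 0.04), Wnt signalling (4, 0.04) and metalloproteinases (9, 0.05) had 0 genes past 2-fold.

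In the cell cycle list, 12 genes were compared, 0 were past 2-fold and the median log2 ratio was 0.06. Members on both sides of 1 had intervals clear of it, with Top2a at 42.0 CPM against 26.3 (1.60, 1.16 to 2.21) and Cdc20 at 22.6 against 43.7 (0.52, 0.36 to 0.73). Top2a reached 0.1 UMI per cell only in the Col2a1-positive cells, while Tyms (1.37, 1.04 to 1.82) and Ube2c (1.28, 1.04 to 1.57) reached it in both groups. Dissociation and immediate early genes had a median log2 ratio of -0.08 over 13, and hypertrophy genes one of -0.03 over 2, Pth1r and Ank. Spp1, a mineralisation gene, had 15 UMIs, 13 of them in 1 cell.

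Because the minimum favours deep cells, the same cells were also placed in bands by their Col2a1 UMIs after thinning to equal depth, with 291, 312, 225, 125 and 113 cells at 0, 1, 2, 3, and 4 or more. Col2a1 was left out of the totals, and median depth varied from 4267 to 4601.5 UMIs over the bands. Col11a2 was higher in each successive band, at 1307 CPM (1247 to 1370), 1812, 2000, 2114 and 2556 (2413 to 2704). Col1a1 had the same order, at 62482, 71467, 76014, 79635 and 86958 CPM, as had Col11a1 (811 to 1084 CPM) and Fmod (4817 to 5964 CPM). Ucma had no such order, at 122, 140, 138, 152 and 142 CPM, nor had Chad at 140, 152, 106, 114 and 117 CPM, and the intervals of the first and last band overlap for both.

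Several other genes were highest in the band with 0 Col2a1 UMIs after thinning. At full depth, 133 Scx-high cells had 0 Col2a1 UMIs, so many of the 291 cells in that band held some. Col3a1 was at 919 CPM (868 to 971) at 0 Col2a1 UMIs and at 442, 372, 363 and 373 CPM in the others. Anxa1 was at 237 CPM and then 101, 86.0, 83.4 and 76.4 CPM, S100a4 at 800 and then 336, 335, 281 and 365 CPM, and Prg4 at 225 and then 88.7, 122, 99.7 and 138 CPM. Tnmd was highest there too, at 8169 CPM against 6966 to 7574 CPM in the others, a smaller step than for these genes. Mgp had no such break and was lower in each successive band, at 634, 548, 511, 451 and 420 CPM.

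Other cell types' markers moved with these bands. The fibroblast or peritenon markers summed to 601, 410, 351, 294 and 271 CPM, immune markers to 135, 246, 59.7, 30.8 and 53.0 CPM, pericyte or smooth muscle markers to 494, 637, 279, 319 and 252 CPM, and chondrocyte markers to 445, 451, 499, 529 and 585 CPM. Single cells held part of these sums. Without the highest cell of each band, immune markers were at 95.6, 182, 34.4, 27.2 and 44.5 CPM and pericyte or smooth muscle markers at 300, 394, 246, 277 and 233 CPM. Endothelial markers summed to 37.1 CPM at 0 Col2a1 UMIs, but 1 cell held 39 of these 50 UMIs, and without it they were at 8.16 CPM, within the 4.05 to 10.6 CPM of the other bands. With the 58 cells left out that held at least 10 UMIs of fibroblast or peritenon, immune, or pericyte or smooth muscle markers, Col3a1 was at 737 CPM at 0 Col2a1 UMIs and at 317 to 367 CPM in the others, and S100a4 at 699 CPM and 265 to 330 CPM. Col11a2 was then at 1381 CPM in the first and 2551 CPM in the last band.

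**Figure D4:**
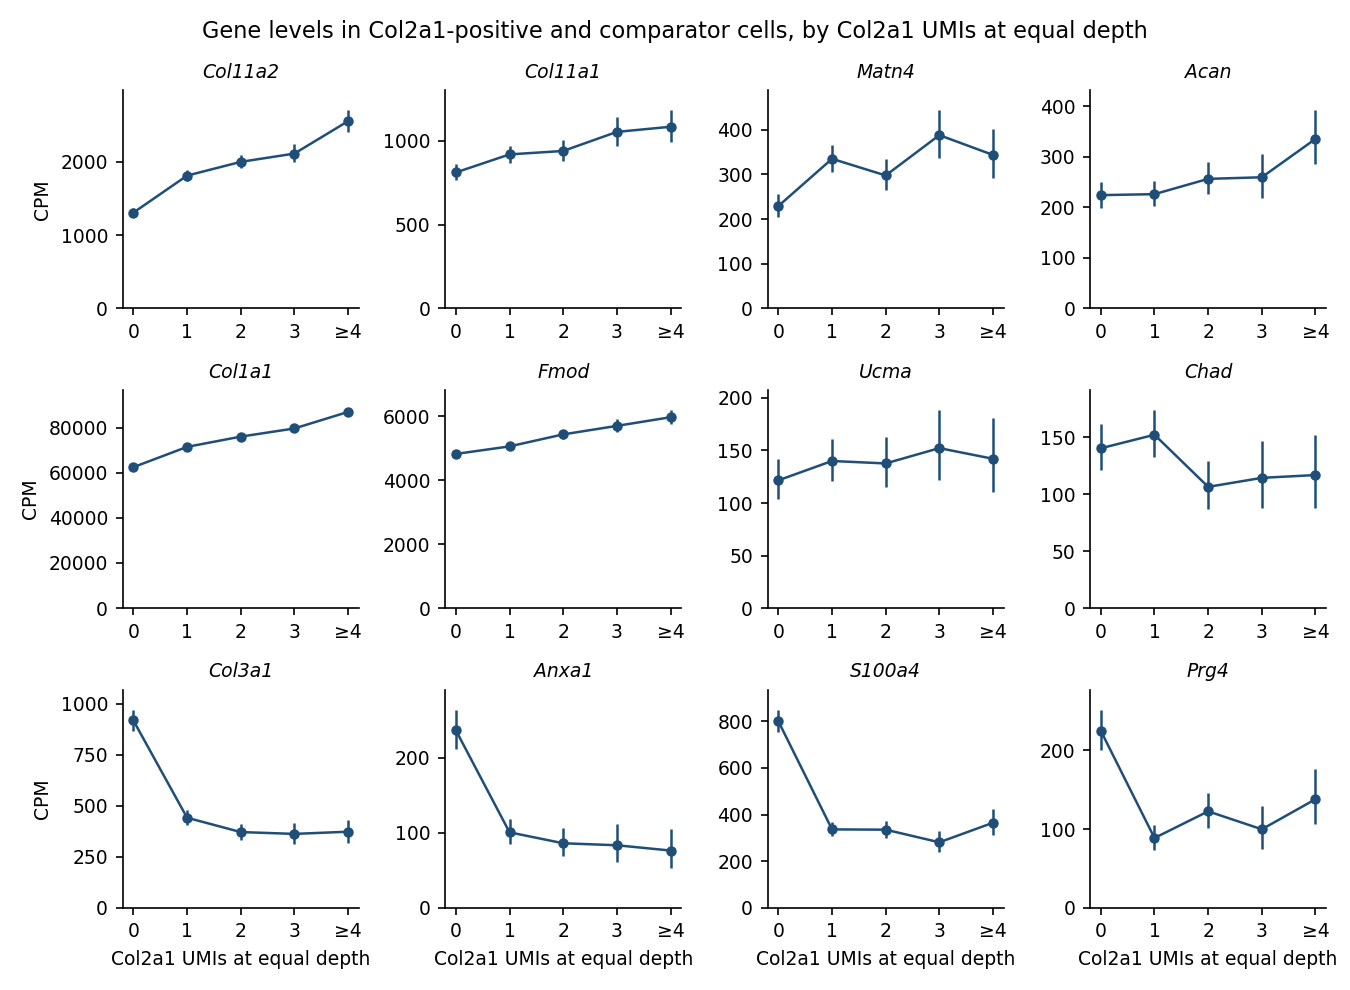
Summed level of 12 genes in CPM (y axes, from 0) in Col2a1-positive and comparator cells grouped by Col2a1 UMIs after thinning to equal depth (x axes), with exact Poisson 95% intervals. Col11a2, Col11a1, Col1a1 and Fmod are higher in each successive band, and Ucma and Chad have no such order. Col3a1, Anxa1, S100a4 and Prg4 are highest in the band with 0 Col2a1 UMIs after thinning.

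Spread over single cells also differed between these genes. The variance divided by the mean at equal depth is 1 for counts that scatter by sampling alone. Over the 1066 Col2a1-positive and comparator cells deep enough to thin, it was 1.36 for Col2a1, beside a median of 1.2 for 200 genes of similar mean, of which 75.0% lay lower. Col11a1 was likewise even (1.31), as was Matn3 (1.09), while Col11a2 stood at 2.25 beside 1.27. Ucma (1.66), Chad (2.24), Prg4 (2.46), Cilp (2.00) and Epyc (3.59) had larger values, above 95.5% to 100% of their neighbours. Col2a1 was thus spread over tendon cells only a little less evenly than most genes of its abundance, and Chad and Ucma were concentrated in some of them.

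**Figure D5:**
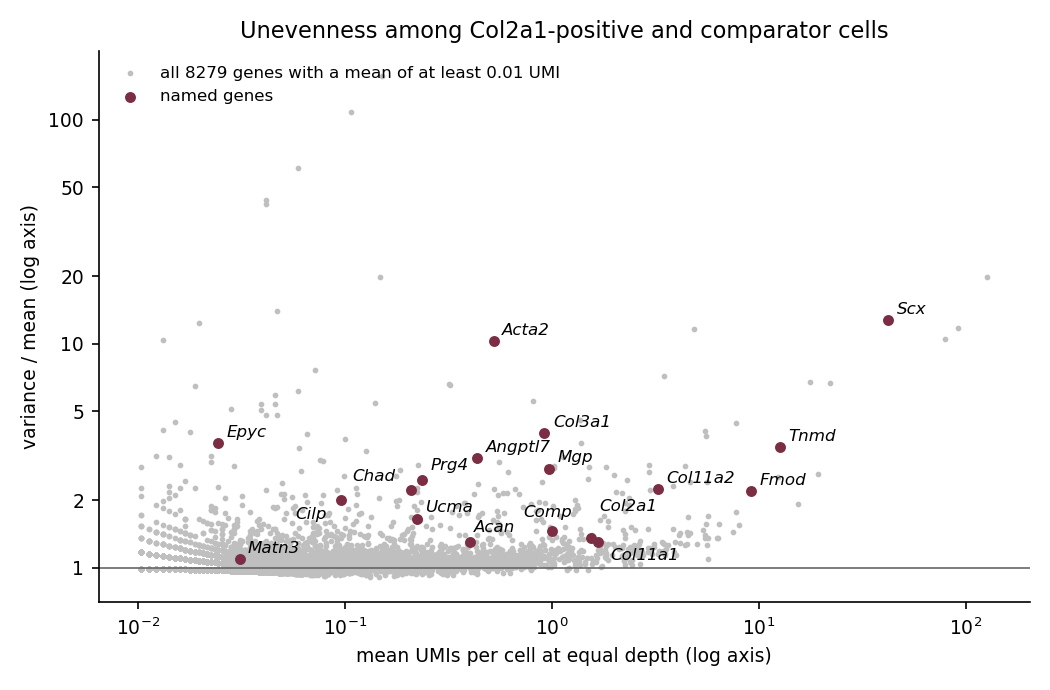
Variance divided by mean (y axis) against mean UMIs per cell at equal depth (x axis), both on log axes, for all genes (grey) and named genes (dark red) over 1066 Col2a1-positive and comparator cells. Col2a1 and Col11a1 lie near the grey band, and Chad, Prg4, Angptl7, Epyc and Acta2 lie above it.

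Within the 379 Col2a1-positive cells, Chad and Ucma were each concentrated in a minority. Chad had a UMI in 89 cells and at least 3 UMIs in 37, which held 74.3% of its UMIs, with up to 19 in 1 cell. Ucma had a UMI in 121 cells and at least 3 in 33, which held 58.1% of its UMIs. Of the 37 Chad-rich cells, 4 (10.8%) were also Ucma-rich, near the 8.71% of all 379, and of the 89 with a Chad UMI, 30 (33.7%) had a Ucma UMI, near the 31.9% of all. In 199 cells neither had a UMI. Acan was broader, with a UMI in 254 cells.

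The 33 Ucma-rich cells were compared with the 258 at 0 over 1161 genes with at least 20 UMIs on each side, and they had similar depth (medians of 5215 and 4920 UMIs). The highest ratios were for Igfbp2, a binding protein of insulin-like growth factors (275 CPM, ratio 4.17, 2.89 to 5.96, in 16 cells), and Angptl7 (707 CPM, 3.91, 3.14 to 4.87, in 20 cells). Asnsd1, Cdh13, Dpp4, Cers5, Dctpp1 and Nppc followed, from 2.95 down to 2.37, and Cdh13 had 19 of its 29 UMIs in 1 cell. The lowest were Crip1 (0.31, 0.27 to 0.37), Col14a1, S100a4, Spon2 and Tgfbi. Col2a1 itself was at 0.86 (0.75 to 0.98), Col11a2 at 0.98 and Tnmd at 0.90. Since all these cells were chosen at 5 or more Col2a1 UMIs, no relation of Ucma or Chad with Col2a1 can be read from them.

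The 37 Chad-rich cells were led by Ly6c1, a cell surface protein among the fibroblast or peritenon markers (ratio 8.99, 5.08 to 16.1, 30 UMIs in 7 cells), and Cox4i2 (6.56, 21 UMIs in 6 cells), compared with 290 cells at 0 over 1252 genes. H19 and Igf2 followed, but 1 cell held 25 of 33 and 1 held 14 of 20 UMIs. Enpp2, Slc16a3, Slc16a1 and Ctgf had ratios from 3.06 down to 2.57. The 5 lowest were H2afv (0.40), Tuba1b, H2afz, Mdk and Tubb5 (0.54), of which tubulin and H2A histone variant genes are strong in dividing cells. Col2a1 was at 0.89 (0.77 to 1.01) and Col11a2 at 0.86 (0.76 to 0.95) in the Chad-rich cells. For Chad and Ucma alike, the minimum of 20 UMIs in the few rich cells let scarce genes in only where they were high there. The named genes were picked as extremes after their values were seen, and the ratios are descriptions.

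The 8 Col2a1-positive cells below the Scx minimum had 5 to 11 Col2a1 UMIs and a median of 4532.5 UMIs. All 8 had UMIs of Tnmd (334 UMIs, 10921 CPM, from 1 to 131 per cell), Fmod (8 to 26 per cell) and Col1a1 (122 to 314 per cell). Of the 8 cells, 5 had Col11a2 (37 UMIs, 1210 CPM). Col3a1 was at 2551 CPM there (78 UMIs in 6 cells). Matn3, Epyc, Hapln1 and Col9a1 had 0 UMIs in them, and Sox9 had 3, all in 1 cell. For free RNA, immune cells of the library held up to 3 Tnmd, 4 Fmod and 64 Col1a1 UMIs per cell. The lowest Tnmd value of the 8 cells was thus no higher than in immune cells. The 46 cells with 10 or more Col2a1 UMIs had Col11a2 at 2754 CPM (2561 to 2958) and Acan at 311 (248 to 384), Ucma at 98.8 (65.1 to 144) and Chad at 102 (68.1 to 148). The 333 cells with 5 to 9 had Ucma at 147 and Chad at 143 CPM, and these values describe groups cut on Col2a1 itself.

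In the mutant library, 2 of 2592 cells met the Col2a1 rule (0.0772%, 0.00935 to 0.278%), both among its 235 Scx-high cells. Of these, 0.851% were Col2a1-positive (0.103 to 3.04%) against 31.5% in the control, and 29.8% against 88.7% had any Col2a1 UMI. At equal depth, the latter shares were 16.6% (11.8 to 22.3%) and 72.6% (69.8 to 75.2%). The 2 mutant cells held 5 and 6 Col2a1 UMIs, 14 Col11a2 UMIs and 16 Chad UMIs, the last all in 1 cell, and 2 cells are too few for the same comparison within that library. Tgfbr2 itself was at 45.2 CPM (49 UMIs) in Scx-high cells of the mutant library against 30.9 CPM (152 UMIs) in the control, a log2 ratio of 0.55 that stands beside a median of 0.37 over all genes. The 3′ counts need not fall in the deleted part of the gene, so they do not check the label. Library and genotype cannot be told apart here, with 1 library of each.

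All Scx-high cells of the libraries were therefore set side by side, whatever their Col2a1. The paper reports that most cells of mutant tendons lost ScxGFP, and it describes those positive for it as newly recruited. The Scx minimum took 235 of 2592 mutant and 1177 of 2364 control cells, which may thus be unlike populations. This limit also holds for the shares of Scx-high cells given above. Of 5127 genes, 4.19% were at least 2-fold lower in the mutant and 14% at least 2-fold higher, and the median log2 ratio of mutant over control was 0.37. Col2a1 was at 114 CPM (124 UMIs) against 861 CPM, or 7.52-fold lower (6.29 to 9.07), and Col11a2 at 235 against 1868, or 7.96-fold lower (7.03 to 9.06). Ucma was 10.4-fold lower (6.16 to 19.1, on 14 mutant UMIs), Cilp2 3.39-fold, Col11a1 2.47-fold and Prg4 2.12-fold. Chad was higher instead, at 283 CPM against 131, as were Acan (373 against 247), Epyc, Vcan, Mgp and Cilp (862 against 51.3), and Matn3 was at 24.9 against 23.8 CPM. Of the 18 compared genes of the cartilage lists, 5 were at least 2-fold lower and 7 at least 2-fold higher, and their median log2 ratio was 0.33. Of these, Epyc, Prelp and Col27a1 reached 0.1 UMI per cell only in the mutant library and Ucma only in the control, as did 458 of the 717 higher and 109 of the 215 lower genes over all, in the library where each was high. Relative to the 0.37 of all genes, the log2 ratios of Chad (1.12) and Acan (0.59) lay above and that of Matn3 (0.07) below.

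Marker lists of other cell types also differed between the libraries. Among the fibroblast or peritenon markers, Ly6a, Cd34, Dpt, Lum, Mfap5 and Ly6c1 are genes that the paper reports as upregulated in mutant tendon cells. That list therefore cannot tell another cell type from mutant tendon cells here. In Scx-high cells of the mutant against the control library, fibroblast or peritenon markers summed to 2618 CPM against 425, led by Mfap5, pericyte or smooth muscle markers to 2074 against 476, led by Tagln, skeletal muscle markers to 338 against 8.75, of which 335 of 366 mutant UMIs were Myog, and Schwann cell markers to 44.3 against 5.09. Immune markers summed to 24.9 CPM against 128, and tenocyte markers to 58805 against 113993. Of 15 compared cell cycle genes, 11 were at least 2-fold higher in the mutant, beside 14% of all genes. Among these 11, Ccnb1 and Mcm5 reached 0.1 UMI per cell only in the mutant library. In a setting chosen after seeing the data, 136 mutant and 61 control cells with at least 10 UMIs of fibroblast, immune, pericyte, muscle, Schwann or endothelial markers were left out. Because of the fibroblast list, this setting can also leave out mutant tendon cells. In the 99 and 1116 cells that stayed, Col2a1 was at 255 CPM against 889, or 3.49-fold lower (2.8 to 4.39), and Col11a2 was 3.68-fold lower (3.16 to 4.31), about a factor of 2 less than over all Scx-high cells. Ucma was 11.3-fold lower (4.39 to 41.6, on 4 mutant UMIs), Chad was at 603 against 128 CPM, and Tnmd at 7083 against 7519 CPM. Cilp2 was then 1.85-fold lower (1.54 to 2.25) in place of 3.39-fold, and Col11a1 1.89-fold lower (1.61 to 2.22) in place of 2.47-fold. Vcan was at 68.4 against 45.8 CPM, in place of 104 against 50.1 CPM. Cilp2, Col11a1 and Vcan were thus under 2-fold in this setting. Matn3, near equal over all Scx-high cells, was at 62.2 CPM (20 UMIs) against 25.5 CPM. Epyc was at 24.9 CPM (8 UMIs) against 12.4 CPM, in place of 38.8 against 11.8 CPM. The part of the other cell types' markers in the remaining differences was not tested.

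Scx-high mutant cells with a Col2a1 UMI at equal depth (35) were compared with those without (176), a setting added after the data had been seen, with median depths of 3580 and 4795 UMIs. Col11a2 was at 616 CPM against 176 (ratio 3.51, 2.67 to 4.57), Matn4 at 651 against 159 (4.09), Cilp2 at 462 against 141 (3.29), Wif1, a secreted Wnt inhibitor, at 525 against 114 (4.6) and Chad at 777 against 202 (3.84). Tnmd was at 8352 against 4923 (1.70, 1.59 to 1.81), Fmod at 4159 against 2210 (1.88) and Col3a1 at 2751 against 4914 (0.56, 0.50 to 0.62). The same split in the control library (770 against 291 cells) gave 1.55 (1.47 to 1.64) for Col11a2, 1.46 for Matn4, 1.17 for Cilp2, 1.03 for Wif1, 0.92 for Chad, 0.87 for Tnmd and 0.41 for Col3a1. Cells with a Col2a1 UMI after thinning thus had more Col11a2 and less Col3a1 in both libraries. Tnmd, Wif1 and Chad were higher in such cells of the mutant library, whereas their ratios were at or below 1.03 in the control. Without the cells rich in markers of other cell types, the mutant split (27 against 51 cells, median depths of 3313 and 3373 UMIs) gave 1.97 (1.43 to 2.71) for Col11a2, 3.9 for Matn4, 2.69 for Cilp2, 4.42 for Wif1, 2.6 for Chad, 1.3 for Tnmd and 0.46 for Col3a1. In that mutant split, Scx was at 36168 CPM against 21741 (1.66, 1.59 to 1.74), and Col1a1 had a ratio of 1.40. The control library split in the same way gave 1.02 for Scx and 1.19 for Col1a1. The mutant groups thus differed in other tendon genes as well, and not in Tnmd, Wif1 and Chad alone. How far the ratios of the libraries differ was not tested.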

How the data were processed

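Per the paper, the authors aligned reads to mm10 with Cell Ranger 2.0 at default settings and kept barcodes by total UMI count, while the submitters' processing notes name Cell Ranger 1.2.0. The deposited values are UMI counts per gene and cell over 27998 genes, without normalization, from 1 library per condition, so no test was run. The cell rule, gene lists and comparisons were chosen with earlier results of these data known. Each group's UMIs were added up and scaled to CPM, and ratios have exact conditional, levels exact Poisson and shares exact binomial (Clopper-Pearson) 95% intervals. Genes averaging 0.1 UMI per cell or more in either group were compared, and ratios of at least 2 either way were counted. Named genes were the 5 markers, the 20 highest and 15 lowest ratios at a mean of at least 0.5 UMI, the 10 highest at 0.1 to 0.5 UMI, and list members. Others, such as genes of Chad- and Ucma-rich cells, were picked once their values were known. For equal depth, cells were thinned to 1709 UMIs, the 10th percentile over both groups. All barcodes were used, and doublets stayed in. The ratio code was tested on simulated data. Symbols missing from the files were matched by Ensembl ID, and coordinates are from GENCODE M21 on GRCm38. Python 3.11.15, NumPy 2.4.6, SciPy 1.17.1, pandas 2.3.3 and scanpy 1.11.5 were used.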

Additional observations from a re-analysis of the deposited data

How the results depend on the processing

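No paired analysis was possible because each condition had 1 library and its label carried no replicate number. In 20 alternatives, 3 of them for these comparisons chosen after seeing the data, the median log2 ratio of the cartilage lists stayed between -0.09 and 0.17 beside 0.12, and at equal depth it was -0.05, as for all genes. A Col2a1 minimum of 3 UMIs gave 725 cells, with 6 genes at least 2-fold higher and 73 lower of 4249 compared. A minimum of 10 UMIs gave 46 cells with 224 higher and 225 lower of 5096, and Sod3 then turned to a log2 ratio of 0.036. A minimum of 10 UMIs per 10000 gave 459 cells with 6 higher and 54 lower of 4205, and among the 6 were the muscle genes Tnnc2, Mylpf and Acta1. At equal depth, 1 gene was higher and 12 were lower of 2128 compared. With comparator cells that held no Col2a1 UMI (133 cells), 148 were higher and 404 lower of 4585. Comparator Scx minimums of 20 and 50 per 10000 gave 42 and 13 lower genes of 4452 and 4432, and under the latter Pf4 turned to a log2 ratio of 0.066. Means over scaled cells gave 7 higher and 33 lower of 4446, and a mean of at least 0.5 UMI gave 1 higher and 0 lower of 1182. Setting 3 or more Col2a1 UMIs against none at equal depth, chosen after seeing the data, gave 238 cells with 25 higher and 174 lower of 4552. Smaller groups and other filters change how many genes can pass, and other causes were not tested. Over the alternatives, Col11a2 (log2 ratio 0.24 to 1.25) and Acan (0.20 to 0.45) were higher in the Col2a1-positive cells, and Col3a1, Anxa1 and Tnmd were lower. Ucma (-0.47 to 1.08) and Chad (-0.39 to 0.17) lay on both sides of 0. The log2 ratio also changed sign for Angptl7 (-0.28), Sdc3 (-0.36) and Wfdc1 (-0.057) with a minimum of 10 UMIs, Tet3 (-0.23) against cells without Col2a1, Acta2 (0.20) without cells rich in other markers, Ide (-0.051) and Apod (-0.0061) with 3 or more UMIs against none at equal depth, Scx (-0.011) with a minimum per 10000, and Comp in 8 alternatives (up to 0.20). Acta2 is itself a marker used to leave out the cells rich in other markers. Leaving out the 26 doublets that Scrublet called (1.1% of the library, 6 of them Col2a1-positive) gave 3 higher and 28 lower genes of 4365 compared. The mutant library's 2 cells allowed no such comparison.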
